A study of Mus musculus with 10 samples.

Results

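In mouse embryoid bodies (EB) at day 4 (d4) of primordial germ cell-like cell (PGCLC) differentiation, single cells were selected on their UMI counts, as those in which at least 3 of 6 primordial germ cell (PGC) markers were detected together. The markers were Prdm1, Prdm14, Tfap2c, Dppa3, Nanos3 and Dnd1, and a marker was counted as detected with 1 or more unique molecular identifiers (UMIs, each standing for 1 captured transcript molecule). Of the 1416 R1 WT cells, 153 met this rule and are called members, which is 10.8% of the library (exact 95% interval 9.23 to 12.5%), and the other 1263 WT cells are called other WT cells. Both libraries together held 3115 cells. The study asked whether enhancer H3K4 methylation by MLL3 and MLL4 is needed for germline competence, and profiled EB of R1 WT and of the Mll3/4 dCD genotype by droplet single-cell RNA-seq that counts the 3′ ends of transcripts. R1 is a male mouse embryonic stem cell (ESC) line, and dCD is 1 line derived from it in which amino acid substitutions remove the catalytic activity of both methyltransferases. Cells of both genotypes went from 2i ESC through d2 epiblast-like cells (EpiLC) to EB grown with BMP4, SCF, LIF and EGF. Each genotype had 1 library, 1416 WT and 1699 dCD cells, so genotype and library cannot be told apart, no test between groups was possible, and every interval given here is an exact 95% interval for counting error only. Levels are UMIs of a gene per 1000000 UMIs of all cells of a group (CPM).

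PGC are the founders of the germline, and in the mouse embryo they are induced from posterior proximal epiblast by BMP signals. Prdm1 (also called Blimp1) and Prdm14 are transcriptional regulators that, with the AP-2 family factor Tfap2c, drive this step, in which somatic genes are repressed and pluripotency genes are expressed again. The mesodermal T-box factor T (brachyury) and other primitive streak genes are transiently expressed at the start of specification, and Dppa3 (Stella), a chromatin protein, marks cells that have gone further. Nanos3 and Dnd1 encode RNA-binding proteins needed for germ cell survival.

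The median depth of a library was 13187.5 UMIs per cell in WT and 11751 in dCD, no cell barcode was shared between them, and Scrublet called 10 WT and 11 dCD cells doublets, 2 of them members. The transcript levels of Kmt2c and Kmt2d, which encode MLL3 and MLL4, were 47.5 and 29.4 CPM in the WT library and 53.8 and 29.1 CPM in the dCD library. Point mutations need not alter transcript levels, so this is no check of the genotype. Members were deeper than other WT cells, with a median of 15445 UMIs per cell against 12981, and the median share of mitochondrial UMIs was 6.09% in members and 5.22% in other WT cells.

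The members were chosen by the UMI counts of these 6 markers, and the markers' values are given as a description. Tfap2c (chr2:172549593-172558622, plus strand, GRCm38) was found in 146 of the 153 members at 223 CPM, against 16.9 CPM in other WT cells. Dppa3 (chr6:122626410-122630272, plus strand) reached 153 CPM in members and 1.83 CPM in other WT cells, and its UMIs came from 72 members. The next 3 markers were each found in about the same number of members. Nanos3 (chr8:84173731-84185217, minus strand) had 86.8 CPM in members, in 106 cells, and 5.76 CPM in other WT cells. Dnd1 (minus strand of chromosome 18) had 78.9 CPM in members, in 101 cells, and 6.15 CPM in other WT cells. Prdm1 (chr10:44437177-44528501, minus strand) had 72.1 CPM in members, in 98 cells, and 3.43 CPM in other WT cells. Prdm14 (chr1:13113457-13127163, minus strand) was the least often detected marker, with 42 members and 17.8 CPM, against 0.664 CPM in other WT cells.

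Few cells carried the full set. Exactly 3 markers were found in 83 members, 4 in 40, 5 in 24 and all 6 in 6 cells. The members held 27 different combinations, of which Prdm1 with Tfap2c and Dnd1 was the most frequent with 17 cells. Tfap2c with Nanos3 and either Dppa3 or Dnd1 followed with 16 cells each. Of the 84 WT cells with a Dppa3 UMI, 72 were members (85.7%, interval 76.4 to 92.4%), as were 42 of the 54 cells with Prdm14 (77.8%, 64.4 to 88.0%), and for the other markers the share was 53.5 to 64.9%. The same detections define membership, so these shares are a description.

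At the edge of the rule, cells with exactly 3 markers and cells with exactly 2 had close depths, medians of 14573 and 14045 UMIs. Pou5f1, the pluripotency factor OCT4, had 847 CPM in the 83 cells with 3 markers and 584 CPM in the 94 cells with 2. It was detected in all of the former and in 87.2% of the latter. Other pluripotency genes did not fall outside the rule. Sox2 had 306 CPM with 3 markers and 314 CPM with 2, and Dppa5a had 2213 and 2491 CPM. Kit was lower with 2 markers, at 58.1 CPM against 88.5 CPM with 3. Hand1, a transcription factor of extraembryonic mesoderm, had 37.6 CPM with 3 markers and 192 CPM with 2. Cells just outside the rule therefore included both Pou5f1-positive cells and cells with mesodermal transcripts. Of 905 WT cells of the extraembryonic mesoderm-like clusters 0 and 4 described below, 2 passed (0.221%, interval 0.0268 to 0.796%). Dppa3 UMIs were found in 0 of the 905, where 0 counts allow up to 0.407%. Their median depth was 12402 UMIs, against 15445 in members. The clusters were formed from the same counts, with the markers allowed among the genes used. These shares are therefore a description and cannot check the rule.

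**Figure D1:**
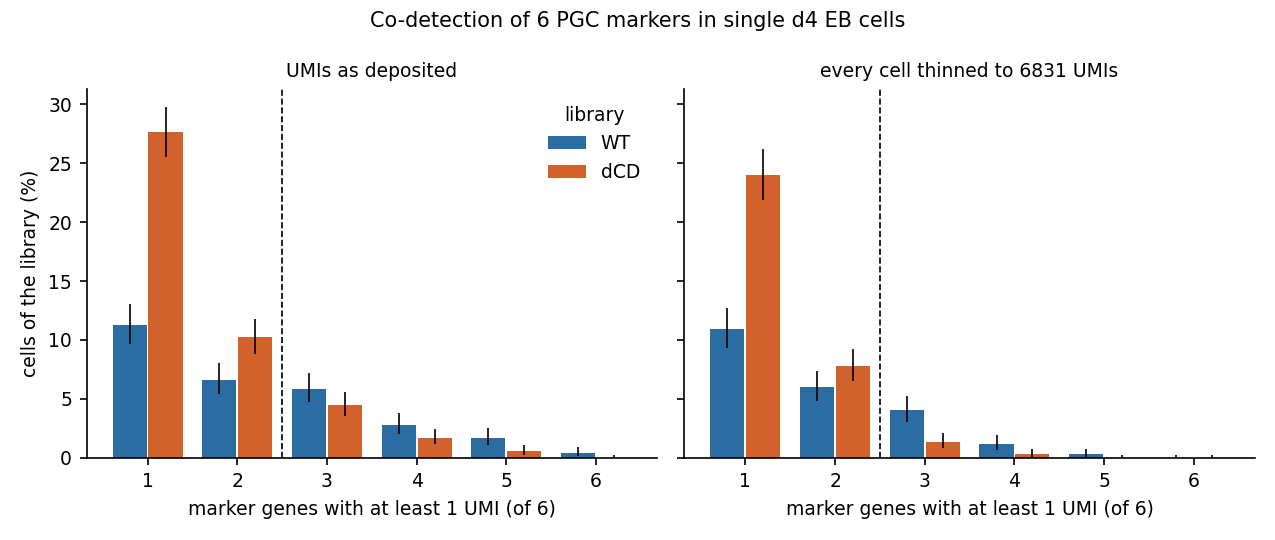
Share of the cells of each library (y axis, %) in which 1 to 6 of the 6 markers had at least 1 UMI (x axis), with exact 95% intervals as lines. The left panel uses UMIs as deposited and the right panel every cell thinned to 6831 UMIs. Cells to the right of the dashed line passed the rule, 153 WT and 115 dCD cells as deposited and 75 WT and 26 dCD cells thinned.

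The members expressed the regulators that germ cells share with pluripotent cells. A gene was counted as higher or lower when its level differed at least 2-fold on the log2(CPM + 1) scale, among genes with at least 10 UMIs over both groups. Across 14291 genes outside the 6 markers, 8% were higher and 22.1% were lower in members than in other WT cells, and the median gene lay at −0.25 on the log2 scale. Of 18 germ cell and pluripotency regulators, 17 were higher and 0 lower, with a median log2 difference of 2.41. Pou5f1 was detected in every member, at 816 CPM against 104 CPM in other WT cells (7.85-fold, interval 7.37 to 8.36). Nanog, the homeobox factor that maintains pluripotency, had 150 CPM against 24.6 CPM (6.11-fold, 5.31 to 7.02). Sox2, the partner of OCT4, had 325 CPM against 59.4 CPM (5.46-fold, 4.98 to 5.99), and Utf1, a chromatin factor of pluripotent and germ cells, had 480 CPM against 55.8 CPM (8.60-fold, 7.91 to 9.36). The zinc-finger factor Klf2 had 380 CPM against 51.1 CPM (7.43-fold, 6.78 to 8.14). The exception was Lin28a, an RNA-binding protein of pluripotent cells and PGC, with 64.6 CPM in members and 69.5 CPM in other WT cells. Genes of naive ESC were less uniform, with 2 of 7 higher and 1 lower. Fbxo15 and Nr0b1 were higher (5.23-fold and 3.87-fold), Klf4 had 49.1 CPM in members against 43.1 CPM, and Tbx3, which extraembryonic mesoderm also expresses, was lower with 52.7 CPM against 275 CPM.

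Of 14 genes of early germ cell effectors and surface proteins, 9 were higher and 1 lower. Kit, the receptor for stem cell factor on which PGC depend, had 119 CPM in members and 19.7 CPM in other WT cells (6.03-fold, interval 5.16 to 7.05). Alpl, the tissue-nonspecific alkaline phosphatase by which PGC are classically stained, had 159 CPM against 25.2 CPM (6.32-fold, 5.52 to 7.25). The interferon-induced transmembrane gene Ifitm1 had 814 CPM against 182 CPM (4.47-fold, 4.23 to 4.73), and its early PGC neighbor Ifitm3 (Fragilis) had 512 CPM against 214 CPM (2.39-fold, 2.24 to 2.54). Elavl2, an RNA-binding protein gene, was 6.38-fold higher (5.28 to 7.71), and the reproductive homeobox genes Rhox6 and Rhox9 were 16.8-fold (10.4 to 27.7) and 24.7-fold (15.9 to 39.4) higher. Itgb3 and Fut4, genes tied to the CD61 and CD15 antigens by which the study scored PGCLC, were hardly seen as transcripts. Itgb3, which encodes CD61, had 3.96 CPM in members and 2.60 CPM in other WT cells. Fut4, which encodes 1 of the enzymes able to make the CD15 sugar, had 0 UMIs in members, against 3.05 CPM in other WT cells. The 0 UMIs allow up to 1.46 CPM. The sugar itself was not measured, so these counts do not tell whether members carry it. Of 14 later germ cell genes, 8 stayed below the minimum of 10 UMIs and the 6 others were higher in members, all at low levels. Dazl, an RNA-binding protein of gonadal germ cells, had 9.51 CPM against 1.77 CPM, and Stra8, which acts at meiotic entry, had 2 UMIs in all members.

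Ranked by the bound of the interval nearest to 1, the genes outside the markers that most set members apart were BC048679, Ap3b2 and Rps6kl1. BC048679 had 30.9 CPM in members and 0.277 CPM in other WT cells (112-fold, interval 45.9 to 354), and Ap3b2, a subunit of the neuronal AP-3 vesicle adaptor, had 109 CPM against 4.76 CPM (22.8-fold, 17.8 to 29.4). Rps6kl1, a kinase-like gene, had 19.02 CPM against 0.609 CPM (31.2-fold, 16 to 66.7). Ap3b2 transcripts were found in 73.2% of the members. The next genes included Rhox9, Gstm3, Lefty1, Slc27a2, Gm31659 and Lefty2. At the other end stood H19, Airn, Tgfbi, Igfbp5, Col1a1, Krt8, Krt19, Col5a1, Nrp1 and Tnfaip2, which include matrix, keratin and imprinted genes. The non-coding RNA H19 had 13.5 CPM in members against 515 CPM (ratio 0.0262, 0.0181 to 0.0366), and Col1a1, a fibrillar collagen chain, 14.7 CPM against 398 CPM (0.0369, 0.0260 to 0.0509). Of the study's PGCLC gene list, drawn up on EB of another ESC line by comparing a PGCLC cluster with the remaining cells, 380 genes outside the markers were measured, and 274 were higher and 2 lower in members, with a median log2 difference of 1.41. Over all genes, 8% were higher and 22.1% lower. The list was built with cells chosen for PGC genes and is not independent evidence of a direction. Per cell, the list's median share of UMIs was 1.84% in members (lowest cell 0.715%, highest 3.01%) and 0.460% in other WT cells. The 94 WT cells with exactly 2 markers, which are not members, had a higher median of 2.03%. The highest other WT cell reached 3.53%, and members of cluster 6, described below, had a median of 1.31%. A high share was thus not particular to members.

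Primitive streak genes were set beside the other WT cells in the same way. Of 13 measured, 7 were higher in members. Lefty1 and Lefty2, secreted inhibitors of NODAL signaling, had 228 CPM against 15.5 CPM (14.7-fold, interval 12.7 to 17.1) and 155 CPM against 12.2 CPM (12.8-fold, 10.8 to 15.1). T had 20.2 CPM against 2.27 CPM (8.90-fold, 5.79 to 13.8), and the growth factor gene Fgf8 had 31.3 CPM against 4.595 CPM (6.81-fold, 4.94 to 9.39). Evx1, Fst and Foxa2 were the 3 lower genes. Posterior somatic genes, which PRDM1 is known to repress in PGC, summed to 53.9 CPM in members and 221.4 CPM in other WT cells (ratio 0.243, 0.204 to 0.289). Snai1, which drives epithelial-mesenchymal transition, had 4.76 CPM in members and 53.3 CPM in other WT cells (11.2-fold lower, 6.39 to 21.8). Hoxb6 had 2 UMIs in members and 544 in other WT cells, a ratio of 0.0263 (0.00318 to 0.0955). The posterior homeobox gene Cdx2 was not among the lower genes, with 34.9 CPM against 27.0 CPM.

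BMP response genes were lower in members as a group, 10 of 11, with a median log2 difference of −1.77. The BMP targets Id1 and Id3, inhibitors of basic helix-loop-helix factors, had 101 CPM against 401 CPM and 158 CPM against 706 CPM, and Msx2 had 28.9 CPM against 243 CPM. Smad7, an inhibitory SMAD, was the exception with 193 CPM against 220 CPM. These genes are also abundant in extraembryonic mesoderm, whose 10 markers summed to 107 CPM in members and 2088 CPM in other WT cells. The part of cell composition in the BMP result was not tested. Of 15 regulators of DNA and histone methylation, 3 were higher and 1 was lower. The 5-methylcytosine dioxygenase gene Tet1 had 265 CPM against 62.5 CPM (4.24-fold, interval 3.85 to 4.67), Dnmt3l and the H3K9 demethylase gene Kdm3a were 2.73-fold and 2.20-fold higher, and the H3K27 demethylase gene Kdm6b was lower with 36.9 CPM against 148 CPM. Uhrf1, which recruits DNMT1 to replicating DNA and is low in PGC, had 64.2 CPM against 112 CPM (1.74-fold lower, 1.48 to 2.05) and did not reach 2-fold. None of the 6 genes of the MLL3/4 complex differed 2-fold. Of 10 mitosis genes, 4 were higher, among them Cenpf with 655 CPM against 225 CPM, and of 10 S phase genes 1 was higher.

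Most markers of other cell types were low in the members. The blood markers, the globins Hbb-y, Hba-x and Hbb-bh1 among them, and the 8 markers of 2-cell embryo-like cells had 0 UMIs. Endothelial markers summed to 55.5 CPM in members and 60.7 CPM in other WT cells, with 1 of 7 higher and 3 lower. Cldn5, a tight junction protein, was the higher one (15.1 against 2.60 CPM, 5.79-fold, interval 3.67 to 9.07). Kdr had 2 UMIs, Cdh5 1 and Emcn 0 in members, while Pecam1, which germ cells also express, had 35.7 CPM in members and 21.2 CPM in other WT cells. Among markers of extraembryonic ectoderm, which also expresses Tfap2c, 2 of 6 measured were higher and 3 lower. Elf5 had 0 UMIs and Plac1 had 7.93 CPM against 106 CPM. Endoderm or gut markers summed to 11.1 CPM in members and 124 CPM in other WT cells.

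The members did not form 1 population. Clustering of both libraries gave 11 clusters, numbered 0 to 10 by size, and 148 of the 153 members lay in clusters 6 (66 cells), 7 (55 cells) and 1 (27 cells). Clusters 6 and 7 are called PGC-like because 5 and 6 of the 6 PGC markers were at least 2-fold higher there than in all other cells, and since those markers also chose the members, the 121 members (79.1%, interval 71.8 to 85.2%) in these clusters are a description. Cluster 6 held as many nascent mesoderm markers (Fgf8 and T) as PGC markers (Dnd1 and Prdm1) among its 10 leading genes, and was led by Lefty1, Igfbpl1 and Fgf8. Cluster 7 was led by BC048679, Dppa3 and Ap3b2. Cluster 1 is called naive pluripotency-like, since 6 of 7 naive markers were at least 2-fold higher in it, as were 4 of the 6 PGC markers. Under the 4 other clusterings, at resolutions of 0.2 and 0.5, with 20 components or without the markers among the variable genes, 96.1 to 98.0% of the members lay in clusters named PGC-like by the same rule, and these clusters held 281 to 298 WT cells. Of the members, 5 lay in clusters 0, 3, 4 and 5.

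**Figure D2:**
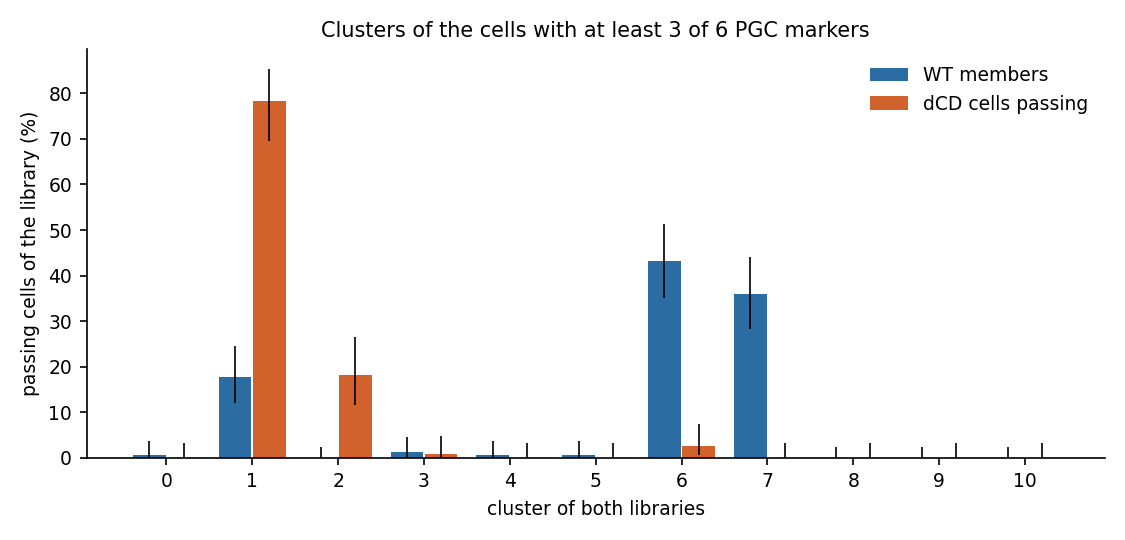
Share of the passing cells of each library (y axis, %) in each of the 11 clusters (x axis), for 153 WT members and 115 dCD cells passing the same rule, with exact 95% intervals as lines. WT members lay mainly in clusters 6 (43.1%) and 7 (35.9%), and dCD cells mainly in cluster 1 (78.3%).

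The 3 groups of members differed in which markers they carried. Prdm1 had 107 CPM in cluster 6, 74.6 CPM in cluster 7 and 9.79 CPM in cluster 1, where 5 of 27 members had a UMI. Dnd1 had 122, 61.8 and 31.3 CPM in clusters 6, 7 and 1. Dppa3 was highest in cluster 7, with 310 CPM and 42 of 55 members, against 47.6 CPM in cluster 6 and 95.9 CPM in cluster 1. Tfap2c was even across them, at 224, 234 and 225 CPM. The pluripotency genes separated the clusters further. Dppa5a, an RNA-binding protein of naive pluripotent and germ cells, had 177 CPM in cluster 6, 3812 CPM in cluster 7 and 4043 CPM in cluster 1, and Zfp42 (Rex1) had 39.4, 513 and 650 CPM. Klf4 marked cluster 1, with 200 CPM and UMIs in 26 of 27 members, against 3.11 CPM in cluster 6 and 18.1 CPM in cluster 7. Ap3b2 went the other way, with 116 and 157 CPM in clusters 6 and 7 and 21.5 CPM in cluster 1. Igfbpl1 (138 CPM) and Msx1 (168 CPM) were highest in cluster 6, and BC048679 (78.9 CPM) in cluster 7. Of the DNA methylation genes, Uhrf1 had 39.9 CPM in clusters 6 and 7 combined against 157 CPM in cluster 1, Dnmt3b 8.41 against 137 CPM, Dnmt3l 2.63 against 62.7 CPM and Dnmt3a 26.3 against 48.9 CPM. The maintenance methyltransferase gene Dnmt1 had close levels, 200.2 against 223 CPM. All cells and genes were used to form the clusters, so these values are a description.

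Within cluster 1, members were set against the 88 other WT cells of that cluster, at median depths of 16831 and 14988.5 UMIs. Pou5f1, Nanog and Klf4 had 732, 245 and 200 CPM in members and 796, 254 and 230 CPM in the other cells of the cluster, and the intervals of the 3 ratios included 1. Ap3b2 had 11 UMIs in members and 10 in the others, a ratio of 2.98 (interval 1.15 to 7.82), and Elavl2 a ratio of 1.92 (1.24 to 2.95). Tbx3 and Spp1, genes of naive ESC, were lower in members, with ratios of 0.613 (0.482 to 0.771) and 0.540 (0.410 to 0.702).

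Dppa3 UMIs divided the members into 72 cells with and 81 cells without, and the early genes lay on the side without. The members with Dppa3 had a median depth of 16259.5 UMIs and those without 14471 UMIs. T had 2 UMIs in the cells with Dppa3, from 1 cell, and 49 in those without, from 18 cells (1.63 against 37.7 CPM, ratio 0.0433, interval 0.00511 to 0.165). Fgf8 had 3 UMIs against 76, from 3 and 24 cells (2.45 against 58.5 CPM, ratio 0.0419, 0.00846 to 0.127). Lefty1 was less divided, with 113 CPM in 37 of 72 cells against 337 CPM in 52 of 81 cells (ratio 0.335, 0.274 to 0.406). UMIs of T or Fgf8 were found in 4.17% of members with Dppa3 (0.868 to 11.7%) and in 38.3% of members without it (27.7 to 49.7%), although the former were deeper. All 3 early genes were found together in 10 members, none of which had Dppa3. Of the 81 members without Dppa3, 25 had none of the early genes either, and in other WT cells T or Fgf8 was seen in 2.22%.

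**Figure D3:**
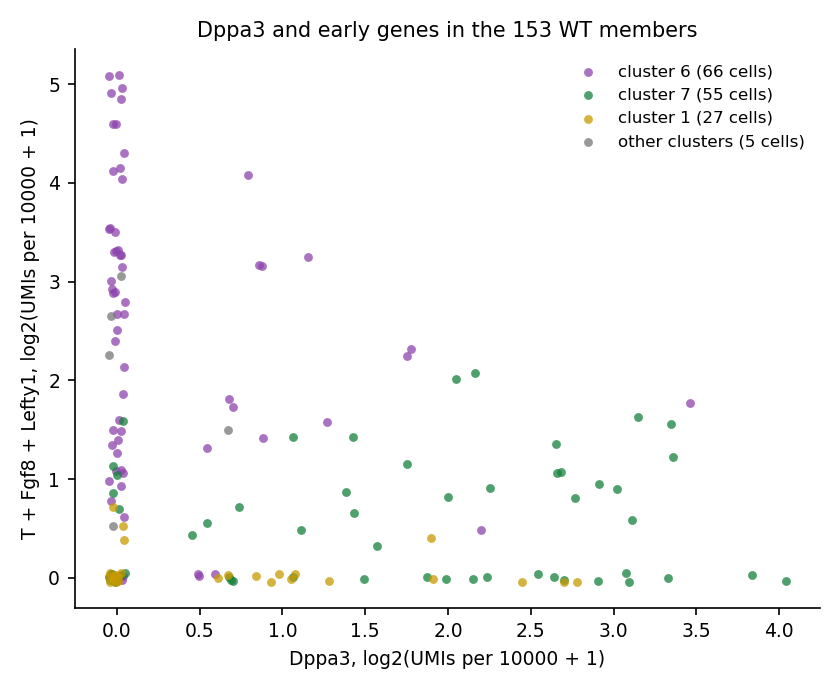
Dppa3 (x axis) against the sum of T, Fgf8 and Lefty1 (y axis) in each of the 153 WT members, both as log2(UMIs per 10000 UMIs of the cell + 1), with a small random shift to separate points, colored by cluster. Cells with the highest sums lie at 0 on the Dppa3 axis and are mostly of cluster 6, and the cells highest in Dppa3 are mostly of cluster 7.

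The rule itself treats both sides differently, because a cell with Dppa3 needs only 2 of the other 5 markers. Of the members with Dppa3, 46 had 3 or more of the other 5 markers. In these, T had 0 UMIs (against 37.7 CPM without Dppa3), Fgf8 2 UMIs (ratio 0.0410, interval 0.00487 to 0.153) and Lefty1 133 CPM (ratio 0.395, 0.318 to 0.487). Members with and without Dppa3 were also spread differently over the clusters, whose part in the division was not tested. T and Fgf8 had 40.4 and 72.5 CPM in members of cluster 6, and in clusters 7 and 1 together 1 UMI each, while the 2 members of cluster 3 held 11 T and 8 Fgf8 UMIs. Cluster 6 held 50 of the 81 members without Dppa3 and 16 of the 72 with it. Inside cluster 6, T UMIs were found in 0 of 16 members with Dppa3 and 16 of 50 without, and Fgf8 in 1 of 16 and 23 of 50. Lefty1 had 320 CPM with Dppa3 and 596 CPM without in that cluster, a smaller difference than over all members.

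Between members with and without Dppa3, 2.46% of 9886 genes outside the markers were at least 2-fold higher with Dppa3 and 6.84% were lower. Primitive streak genes summed to 306.5 CPM with Dppa3 and 687.9 CPM without (ratio 0.4455, interval 0.394 to 0.503). Sp5, a WNT target, was also lower. T, Fgf8 and Sp5 reached the minimum of 10 UMIs through the members without Dppa3 alone, so no count of the list is drawn. Next to Fgf8 and T in rank was Rspo3, a secreted enhancer of WNT signaling, with 6.54 CPM against 46.2 CPM (ratio 0.142, interval 0.0585 to 0.297). The homeobox BMP target Msx1 had 39.2 CPM against 136 CPM (ratio 0.288, 0.205 to 0.398), the BMP target Id2 had 27.8 CPM against 97.7 CPM (0.284, 0.189 to 0.418), and the Notch target Hes1 had 8.99 CPM against 43.1 CPM (0.209, 0.0986 to 0.402). Peg10, a paternally expressed retrotransposon-derived gene, had 41.7 CPM against 158 CPM, Psmb8, an immunoproteasome subunit, 5.72 CPM against 34.6 CPM, and Kdm6b 17.98 CPM against 54.6 CPM. Extraembryonic mesoderm markers moved with the split, with a sum of 53.9 CPM with Dppa3 against 158 CPM without. Their part in these values was not tested.

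On the other side, BC048679 led the genes that were higher with Dppa3, with 50.7 CPM against 12.3 CPM (4.12-fold, interval 2.35 to 7.64). Pecam1, an adhesion molecule, was 3.28-fold higher (2.00 to 5.58), Rhox9 3.05-fold (1.89 to 5.08), and Tcl1, a coactivator of AKT kinase, 3.02-fold (1.76 to 5.39). Among the 18 germ cell and pluripotency regulators, Tcl1 alone passed 2-fold, and the median log2 difference was 0.44 against −0.08 over all genes. Dppa5a (1.90-fold, 1.80 to 2.00), Tdh (1.82-fold, 1.57 to 2.11), Zfp42 (1.69-fold, 1.47 to 1.94) and Utf1 (1.66-fold, 1.48 to 1.87) lay under the threshold with intervals above 1. Pou5f1 had 761 CPM with and 868 CPM without Dppa3 (ratio 0.877, 0.803 to 0.957), and for Nanog the interval of the ratio (0.878 to 1.33) included 1. Of the PGCLC list, 22 of 374 genes were higher (5.88%) and 10 lower (2.67%), against 2.46% and 6.84% over all genes. The list's median share of the UMIs of a cell was 2.04% with Dppa3 and 1.36% without. None of the 10 S phase or 10 mitosis genes differed 2-fold.

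The same rule was met by 115 of the 1699 dCD cells, or 6.77% (interval 5.62 to 8.07%), against 10.8% in WT. With at least 2 markers the libraries were close, at 17.4% of WT and 17.0% of dCD cells, and among cells with at least 3000 genes the rule was met by 10.6 and 8.62%. All 6 markers were found in 6 WT cells and in 0 dCD cells, where 0 counts allow up to 0.217%. At least 4 markers were found in 4.94% of WT (3.87 to 6.21%) and 2.30% of dCD cells (1.64 to 3.12%). The dCD cells that passed were deep, with a median of 19082 UMIs against 11452.5 in other dCD cells. With cells thinned to an equal 6831 UMIs (50 WT and 170 dCD cells were shallower and were dropped), 5.49% of WT (4.34 to 6.83%) and 1.70% of dCD cells (1.11 to 2.48%) passed. Of the passing cells deep enough to thin, 75 of 152 WT members and 26 of 114 dCD cells still passed. By depth of the cell as deposited, WT exceeded dCD in cells under 10000 UMIs, with 4.98% against 0.838%, and in cells of 10000 to 15000 UMIs, with 9.43% against 3.92%. At 15000 to 20000 UMIs the shares were 13.2 and 11.7%, and at 20000 or more 19.6 and 24.6%, with overlapping intervals.

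**Figure D4:**
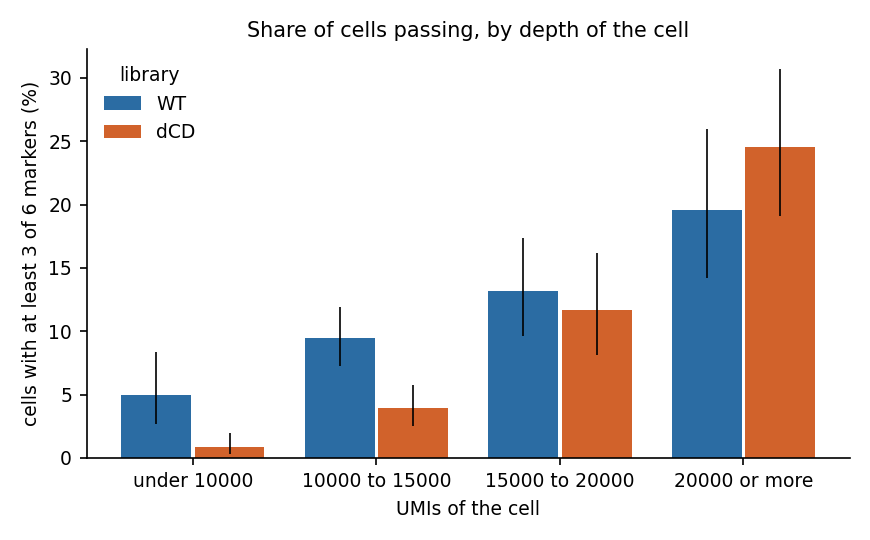
Share of cells with at least 3 of the 6 markers (y axis, %) by the number of UMIs of the cell (x axis, 4 ranges), for the WT and dCD libraries, with exact 95% intervals as lines. WT lies above dCD in the 2 shallower ranges, and the intervals overlap in the 2 deeper ranges.

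The dCD cells that passed lay elsewhere. Of the 115, 90 were in cluster 1 (78.3%, interval 69.6 to 85.4%), 21 in cluster 2, 3 in cluster 6, 1 in cluster 3 and 0 in cluster 7. In the PGC-like clusters 6 and 7 stood 2.61% of them (0.541 to 7.44%), against 79.1% of the WT members. These clusters held 168 WT cells and 6 dCD cells in all, and cluster 1 held 115 WT and 462 dCD cells. The dCD share in PGC-like clusters was 6.09 to 7.83% under 3 other clusterings and 80.9% at a resolution of 0.2, where the PGC-like clusters held 282 WT and 466 dCD cells. Cluster 2, of 8 WT and 495 dCD cells, was led by globins with Rhox6, Rhox9 and Stra8. The naming rule of the clusters gave blood-like for it, with 4 of 5 blood markers at least 2-fold higher. That name is not used for the passing cells, since blood markers summed to 0 CPM in the dCD cells that passed. The 3 dCD cells in cluster 6 all had Dppa3 and Fgf8 UMIs.

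Marker by marker, dCD cells that passed had less Nanos3 than the WT members, with 31.6 against 86.8 CPM (ratio 0.364, interval 0.277 to 0.474), less Dnd1, with 33.2 against 78.9 CPM (0.422, 0.321 to 0.549), and less Prdm1, with 39.9 against 72.1 CPM (0.553, 0.427 to 0.712). Prdm14 was on the other side, with 28.7 against 17.8 CPM (1.61, 1.09 to 2.40). Tfap2c had 180 and 223 CPM and Dppa3 123 and 153 CPM in dCD and WT. These values describe cells that the same markers chose, at depths that differed.

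Over 11498 genes outside the markers, 10.6% were at least 2-fold higher in dCD cells that passed than in WT members, and 4.51% were lower. None of the 18 germ cell and pluripotency regulators differed 2-fold, with a median log2 difference of 0.35. Pou5f1 and Kit were lower in dCD cells without reaching 2-fold, and Kit had 68.2 against 119 CPM (ratio 0.573, interval 0.471 to 0.696), an order that turned within cluster 1. Of 7 naive ESC genes, 5 were higher and 0 lower. Spp1, which encodes osteopontin, had 210 CPM against 45.2 CPM (4.65-fold, 3.79 to 5.75), Tbx3 168 against 52.7 CPM (3.19-fold, 2.62 to 3.91), and Klf4 111 against 49.1 CPM (2.25-fold, 1.81 to 2.81). Klf4 UMIs were found in 52.2% of the dCD cells and 25.5% of the WT members.

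Several later germ cell genes had higher levels in dCD cells that passed. Of the 14 genes listed, Slc25a31 and Taf7l had UMIs in the dCD cells alone (13 and 14), so they passed the minimum of 10 UMIs through these cells, and no count of the list is drawn from them. Stra8 had 92.3 CPM in dCD cells that passed, in 58 of 115 cells, and 2 UMIs in the WT members (ratio 116, interval 31.8 to 967). It was not particular to these cells, since it had 78.9 CPM in the other dCD cells, in 455 of 1584 cells, and 3 UMIs in other WT cells. Sycp3, of the synaptonemal complex of meiotic chromosomes, had 52.4 against 7.93 CPM (6.61-fold, 4.10 to 11.2). Sohlh2, a basic helix-loop-helix factor of differentiating germ cells, had 97 UMIs against 1 (ratio 102, 17.8 to 4058), and Usp26, a testis-expressed deubiquitinase, had 42.8 CPM against 0 UMIs, at least 36-fold higher when 3 counts over the WT members are taken as the limit. The homeobox genes Rhox5, Rhox6 and Rhox9 were 6.68-fold, 8.84-fold and 5.24-fold higher.

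Several genes of WT members were low in dCD cells that passed. Igfbpl1 led, with 3.32 against 61.4 CPM (ratio 0.0541, interval 0.0230 to 0.109), followed by Msx1, with 6.65 against 89.2 CPM (0.0746, 0.0419 to 0.124), and Cdx2, with 2.91 against 34.9 CPM (0.0834, 0.0326 to 0.179). The leading genes of the WT members were low as well, BC048679 with 2.49 against 30.9 CPM and Ap3b2 with 15.4 against 109 CPM. Of 8 primitive streak genes measured, 4 were lower and 1 higher. Lefty1 had 38.2 against 228 CPM (0.168, 0.133 to 0.209) and Lefty2 52.8 against 155 CPM (0.340, 0.276 to 0.416), and T had 4.16 against 20.2 CPM. Nodal was the higher one, with 61.9 against 30.1 CPM. T or Fgf8 UMIs were found in 7 of 115 dCD cells and 34 of 153 WT members. Elavl2, higher in WT members than in other WT cells, had 27.8 against 84.4 CPM (0.330, 0.247 to 0.436). Of the PGCLC list, 68 of 379 genes were higher (17.9%) and 36 lower (9.5%), against 10.6% and 4.51% over all genes. The list's median share per cell was 2.25% in dCD cells that passed and 1.84% in WT members.

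**Figure D5:**
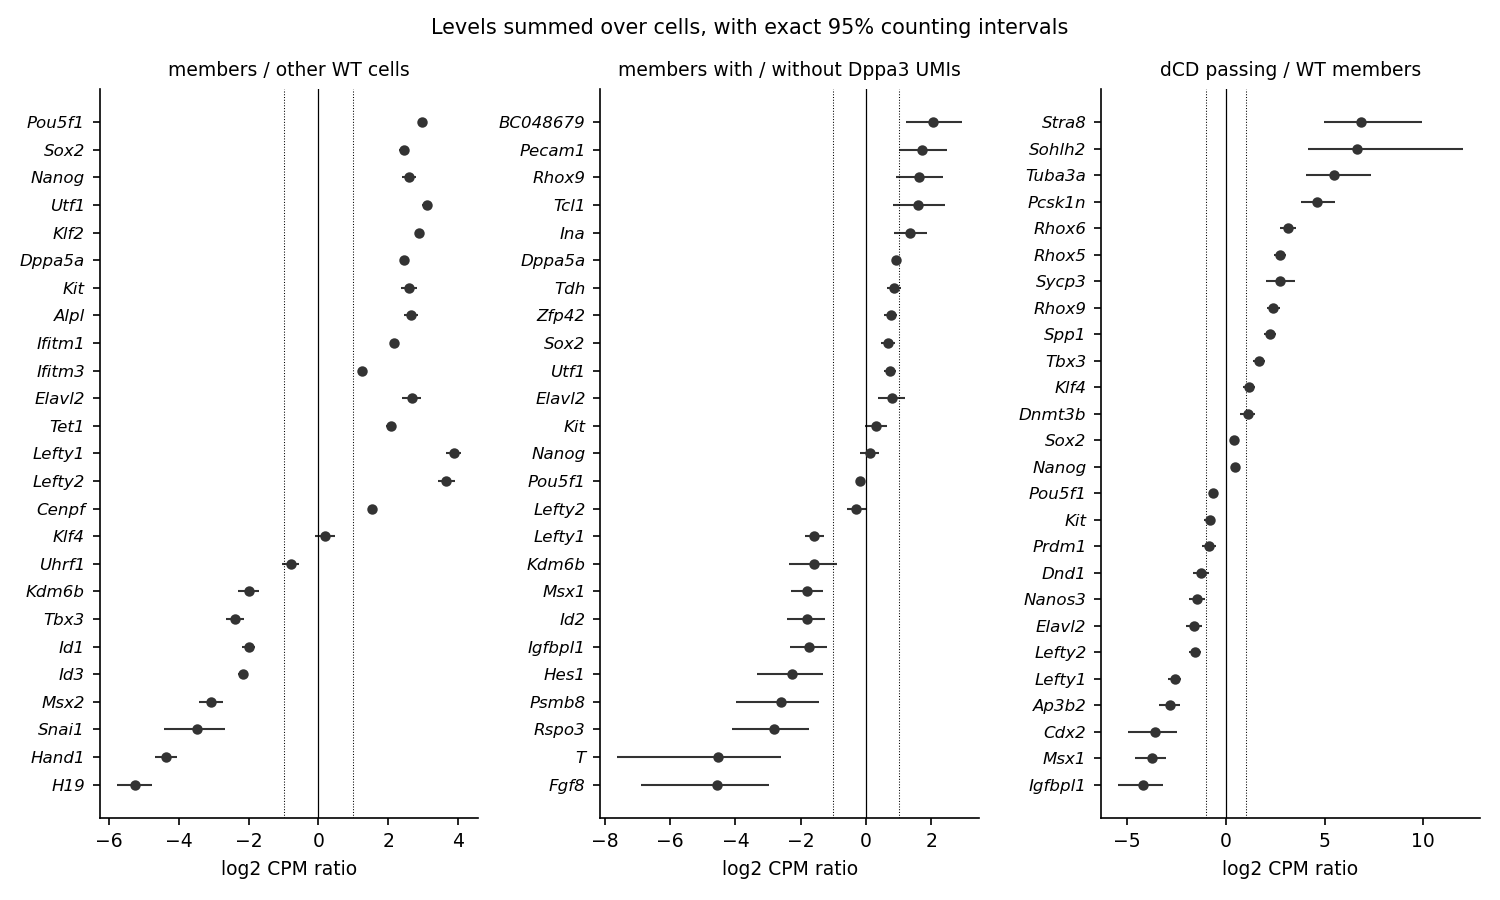
Log2 ratio of CPM (x axis) for chosen genes (y axis) in 3 comparisons: members against other WT cells, members with against without Dppa3 UMIs, and dCD cells that passed against WT members. Points are ratios, lines exact 95% intervals for counting error, and dotted lines 2-fold. Pou5f1 lies near 3 in the left panel and near 0 in the middle panel, where T and Fgf8 lie lowest, and Stra8 lies highest in the right panel.

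Cluster 1 held enough cells of both libraries to compare passing cells within it. In it, 90 dCD cells that passed were set beside 27 WT members, at median depths of 20020 and 16831 UMIs. This shared grouping depended on the clustering. At a resolution of 0.5, with 20 components or without the markers among the variable genes, PGC-like clusters held 96.1 to 98.0% of WT members. They held 6.09 to 7.83% of the dCD cells that passed. At a resolution of 0.2 the shares were 96.7 and 80.9%. The values below are for cluster 1 as formed at a resolution of 0.3. The naive genes were divided there. Klf4 had 137 against 200 CPM (ratio 0.687, interval 0.544 to 0.872) and Tbx3 186 against 178 CPM, while Spp1 was higher in dCD cells, with 255 against 133 CPM (1.91, 1.48 to 2.51), as was Klf5, with 216 against 125 CPM (1.73, 1.32 to 2.28). Lefty1, Igfbpl1, Cdx2 and BC048679 had 3 UMIs or fewer in the WT members of this cluster, too few to compare. Stra8 had 95.8 CPM in dCD cells and 0 UMIs in WT members, Rhox6 had 170 CPM against 1 UMI (ratio 86.6, 15.4 to 3431), and Sohlh2 47.6 CPM against 1 UMI (24.3, 4.26 to 971). Nanos3 remained lower in dCD cells, with 34.5 against 104 CPM (0.333, 0.228 to 0.487), as did Elavl2, with 28.3 against 76.4 CPM (0.370, 0.241 to 0.574). For Ap3b2 (0.559, 0.262 to 1.27) and Dnd1 (0.852, 0.478 to 1.60) the interval included 1 in this cluster. The order turned for several genes, and those given here are examples. Klf4, above, was higher in dCD over all passing cells and lower here. Zfp42 had 414 CPM in dCD cells and 338.5 CPM in WT members over all passing cells, and 499 against 650 CPM in this cluster. Prdm1 had 39.2 CPM in dCD cells and 9.79 CPM in WT members (4.01-fold, 1.64 to 12.7), and Kit 81.1 against 50.9 CPM (1.59-fold, 1.05 to 2.52), both lower in dCD over all passing cells. Dnmt3b, 2.15-fold higher in dCD over all passing cells (1.65 to 2.81), had 63.3 against 137 CPM (0.462, 0.342 to 0.629).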

How the data were processed

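Cells of both genotypes were profiled on the 10x Chromium platform with 3′ v3 chemistry. The deposited table held whole-number UMI counts, not normalized, for 32285 genes in 3115 cells, with the library of each cell in its barcode name, and the authors had removed cells with under 2000 expressed genes. The submitters' processing notes name mm10 for these libraries, and the aligner and counting tool are not given in the sources used here. EB libraries of the other ESC line were not used here.

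Cells were selected on the deposited counts. For a group of cells, a gene's UMIs were added up and divided by the total of the group, with exact Poisson intervals for CPM, conditional binomial intervals for ratios and Clopper-Pearson intervals for shares (scipy 1.17.1, Python 3.11.15). A gene was called higher or lower at 2-fold with a pseudocount of 1 CPM and at least 10 UMIs over both groups. Thinned cells were sampled to 6831 UMIs without replacement, leaving out shallower cells. Clusters came from Seurat 5.3.0 in R 4.3.3 (2000 variable genes, 10 principal components, resolution 0.3), and doublets from Scrublet in scanpy 1.11.5, called in each library and kept. Gene positions were taken from the GRCm38 annotation. Genes named were the markers, the 3 early genes and genes of the lists, and for each comparison the 10 with the ratio farthest from 1 in each direction, among those with 50 UMIs over both groups and detected in 10% of the cells of the higher group, ranked by the bound of the interval nearest to 1, and the 5 PGCLC genes by the same ranking. Not every gene so chosen is printed. The members, the early genes and all lists were chosen with earlier results of these data known. The calculations were tested on simulated data first.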

Additional observations from a re-analysis of the deposited data

Results flagged for a closer look

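WT members and dCD cells passing the same rule were each divided by Dppa3 UMIs, and cells with Dppa3 were set against those without in each library, and for 10 named genes with more than 3 UMIs on each side in both libraries the interval of the ratio lay above 1 in one library and below 1 in the other. The dCD library had 58 such cells with Dppa3 and 57 without, at median depths of 18196 and 20834 UMIs. The difference between the libraries was not tested for any of these genes, since each library is 1 sample. Values are the log2 difference in dCD minus that in WT, on the log2(CPM + 1) scale.

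The cells divided lay in different clusters, the WT members with Dppa3 mainly in cluster 7 (42 of 72) and those without mainly in cluster 6 (50 of 81), the dCD cells mainly in cluster 1, and these genes differed between clusters, as Dppa5a did with 177 CPM in WT members of cluster 6 and 3812 CPM in those of cluster 7. The part of the clusters was not tested.

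Most were pluripotency genes that were higher with Dppa3 in WT and lower with Dppa3 in dCD. They were Tcl1 (−2.58), Esrrb (−1.58), Tdh (−1.57), Dppa5a (−1.25), Zfp42 (−1.003) and Sox2 (−0.91). Tcl1 had 44.1 CPM with and 14.6 CPM without Dppa3 in WT, and 33.0 and 69.4 CPM in dCD. Esrrb, an orphan nuclear receptor of naive pluripotency, had 50.7 and 30.01 CPM in WT, and 41.5 and 75.1 CPM in dCD. Rbmxl2, a germ cell RNA-binding protein gene (−1.44), and Ifitm1 (−0.90) followed the same order. The opposite order was seen for Ifitm3 (0.79) and Peg10 (3.06), and Peg10 had 41.7 and 158 CPM in WT, and 162 and 71.8 CPM in dCD.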

How the results depend on the processing

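The share of cells selected depended on the rule in both libraries. It was 17.4% in WT and 17.0% in dCD with at least 2 of 6 markers, 4.94 and 2.30% with at least 4, 3.67 and 1.06% with 2 UMIs required per marker, 5.49 and 1.70% thinned, and 5.30 and 2.65% without Tfap2c, and in dCD 8.62% among cells with at least 3000 genes. Counts of genes past the fold moved with the threshold. For members against other WT cells, 339 genes were higher and 1181 lower with a pseudocount of 10 CPM, 2283 and 5180 at 1.5-fold and 476 and 1592 at 3-fold. For members with against without Dppa3 the counts were 16 and 86 with that pseudocount, 722 and 1438 with no filter, 31 and 119 with at least 50 UMIs, 779 and 1604 at 1.5-fold and 52 and 215 at 3-fold. For dCD cells against WT members they were 286 and 96, 541 and 190 with at least 50 UMIs, 2494 and 1276 at 1.5-fold and 483 and 194 at 3-fold, and 819 were lower with no filter. The Lefty1 difference was −1.87 thinned and −0.90 within cluster 6, on the log2 scale. The share of members in PGC-like clusters was 96.7% at resolutions of 0.2 and 0.5, 98.0% with 20 components and 96.1% with the markers left out of the variable genes. Counts of genes and shares of cells have no sign and could not reverse. Only the log2 differences of T, Fgf8 and Lefty1 could, and they stayed negative in every setting. The other 63 values were not counted as moved, among them those without doublets. The settings without cluster 1, in cluster 1 alone or within cluster 6 were chosen after seeing the data. T ranged from −5.87 to −3.83 and Fgf8 from −6.44 to −4.06 on the log2 scale, and at the 0 to 3 UMIs left with Dppa3 such values depend on the pseudocount. Without cluster 1, 1240 genes were higher and 3506 lower in members than in other WT cells. No paired analysis was possible because each genotype had 1 library. The number of UMIs per cell limits which markers are seen, and a cell without Dppa3 UMIs may have had Dppa3 transcripts that were not captured.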

Other observations

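Several imprinted genes had low levels in the members. They were picked after their values were seen, from no fixed list, and 22.1% of all genes were lower in members. Besides H19 and Airn, Igf2, the fetal growth factor, had 42.8 CPM in members and 838 CPM in other WT cells (ratio 0.0511, interval 0.0419 to 0.0618). Cdkn1c, a cell cycle inhibitor, had 28.1 CPM against 379 CPM (0.0743, 0.0580 to 0.0939), Peg10 had 101 CPM against 1012 CPM (0.100, 0.0883 to 0.113), and Dlk1, a Notch-related ligand, had 5.15 CPM against 88.4 CPM (0.0583, 0.0310 to 0.100). Grb10 had 0 UMIs in members and 13.2 CPM in other WT cells. The abundant imprinted genes Peg3 and Meg3 differed less, with 559 against 1662 CPM and 440 against 1314 CPM. Alleles were not measured. In dCD cells that passed, Peg3 had 168 CPM and Cdkn1c 2.49 CPM, both below the WT members, while Peg10 had 116 CPM. Extraembryonic mesoderm, which made up most other WT cells by its markers, expresses several of these genes, and its part in the difference was not tested.

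Among cells with Prdm1 or Dppa3 UMIs and no Klf4 UMI, 101 of 142 WT cells passed the rule (71.1%, interval 62.9 to 78.4%) and 49 of 168 dCD cells (29.2%, 22.4 to 36.7%). In the dCD library, 58 of the 115 cells with Dppa3 UMIs were among those that passed (50.4%, 41.0 to 59.9%), against 72 of 84 in WT. Over whole libraries, Prdm1, Dppa3, Tfap2c and Dnd1 had 11.3, 18.7, 44.3 and 16.7 CPM in dCD and 11.9, 20.4, 42.2 and 15.1 CPM in WT. Nanos3 was lower in the dCD library, with 7.52 against 15.7 CPM, and Prdm14 higher, with 5.20 against 2.77 CPM.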
